A study of Caenorhabditis elegans with 15 samples.

Results

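A group of neighbouring genes near the left end of chromosome V of the nematode Caenorhabditis elegans is described here in the intestine. The genes are srbc-15, irld-53, irld-35, clec-209, F56A4.2, F56A4.3, F56A4.5, Y19D10A.4, Y19D10A.8 and Y19D10A.16, 10 of the 46904 genes with a deposited estimate. They were chosen from their measured levels, because most of them were low in gas-1(fc21) intestines and high again in intestines that also overexpressed cest-2.2. The values of those 2 comparisons are therefore a description of the choice and carry no test here. O/E against wild-type is the sum of both on the log2 scale, so its values for the 10 genes are a description as well.

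RNA was sequenced with full-transcript libraries from dissected intestines, 20 per library, of worms grown for 5 days from bleached eggs on OP50 bacteria, with 5 libraries in each of 3 groups. The first group, gas-1(fc21) with cest-2.2 O/E, carried the fc21 allele of gas-1 and overexpressed cest-2.2, and is called O/E below. The second, gas-1(fc21), carried the allele alone and is called gas-1, and the third was wild-type. The allele is thus shared by O/E and gas-1, the gene gas-1 encodes a subunit of mitochondrial complex I, and cest-2.2 is a carboxylesterase gene. The labels name 1 strain for O/E, and give neither the promoter that drives cest-2.2 nor the crossing history of the strains.

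The total of estimated counts ranged from 12785262 to 45896053 in O/E libraries, from 12607565 to 17688689 in gas-1 and from 12182697 to 40045140 in wild-type. Levels are given as CPM, counts per 1000000 of the TMM-scaled library total, and as TPM where genes are compared with each other, since TPM also allows for transcript length. The cest-2.2 transcript had 121 ± 42.7 CPM in O/E, 56.1 ± 24.2 CPM in gas-1 and 42.2 ± 17.4 CPM in wild-type (SD, n = 5 each). It was not called in O/E against gas-1 (log2 1.11 ± 0.33, edgeR adjusted p 0.109), and the lowest O/E library at 60.9 CPM lay below the highest gas-1 library at 97.5 CPM. It was called higher in O/E against wild-type (log2 1.52 ± 0.34, edgeR adjusted p 0.011). It lies 11.7 Mb from F56A4.3 on the same chromosome. All 12 intestine markers were detected, and 5 of them were higher in gas-1 than in wild-type. None of 6 markers of ciliated sensory neurons had enough counts to be tested. Germline markers were detected too, and 6 of 10 were lower in gas-1 than in wild-type, with a mean log2 CPM of 7.70 to 8.43 in O/E, 7.137 to 8.003 in gas-1 and 8.02 to 8.32 in wild-type libraries. Body wall muscle markers had a mean log2 CPM of 5.05 to 6.54 in wild-type replicates 1, 2 and 4, and of 1.59 to 3.95 in the remaining libraries, and 3 of 8 were lower in gas-1 than in wild-type. Fits with the germline level as a covariate and without wild-type replicates 1, 2 and 4 are given below, and any other part of these markers in the results was not tested. In such bulk samples, fewer cells of a type and less RNA per cell cannot be told apart. Nothing in the labels says that the libraries came from separate cultures, so p-values measure the spread between these libraries, which may be technical.

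C-type lectins such as clec-209 are proteins with a carbohydrate-binding fold. In C. elegans they form a large family, many members of which are expressed in the intestine and respond to bacteria. The irld genes encode proteins with a domain like the ligand-binding L domain of insulin and EGF receptors, and srbc genes encode serpentine receptors, a class best known from chemosensory neurons. The annotation lists srbc-15 as a pseudogene. No role is given here to the genes known by a sequence name alone.

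The 10 genes lie in 115.2 kb that overlap a long repeat, which was read from gene positions and spans and not from sequence. Its right copy runs on past the 10 genes. From left to right on chromosome V (WBcel235, Ensembl release 115), srbc-15 lies at 2345676 to 2348123, irld-53 at 2348215 to 2350325, clec-209 at 2351676 to 2352932 and Y19D10A.8 at 2353359 to 2356582. They are followed by Y19D10A.4 at 2385956 to 2390722 and Y19D10A.16 at 2392772 to 2394147. F56A4.5 lies at 2437960 to 2439871 and F56A4.3 at 2453414 to 2456147, with irld-35 at 2456176 to 2458286 and F56A4.2 at 2459637 to 2460893. Of the 29 genes from srbc-15 up to F56A4.3, 25 had a same-strand partner of similar span 107961 to 108279 bases further on. Spans were of the same length in 20 of these pairs. The pairs include irld-53 and irld-35, clec-209 and F56A4.2, Y19D10A.4 and C01B4.7, and Y19D10A.16 and C01B4.6. Genes at such a spacing whose spans differed more, mct-1 and mct-2 as well as str-265 and str-76, were not counted as pairs. The span of srbc-15 shifted by 107961 bases is 2453637 to 2456084, which falls inside F56A4.3.

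Copies of a gene limit what the estimates can separate. Of these 25 pairs 19 had any counts, and 13 had equal estimated counts in every library within a relative difference of 0.0001. clec-209 and F56A4.2 are such a pair, each with 1 transcript of 891 bases, so both carry the same values below and only their sum is a measurement. Y19D10A.4 repeats the values of C01B4.7, and Y19D10A.16 those of C01B4.6. Of the 26 transcripts of the 10 genes, 20 had an equal twin in another gene. Transcripts without one were those of srbc-15, F56A4.3 and F56A4.5, the g and h transcripts of irld-53 and the a transcript of Y19D10A.8. Of the 26 deposited transcripts, 25 had the length that Ensembl release 115 gives. The transcript of F56A4.3, 394 bases long in the deposited files, has no entry under its name in that release. None of the 10 genes overlaps another measured gene.

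All 10 genes had enough counts to be tested. The threshold for a call was 0.05 on the p of edgeR's quasi-likelihood test, adjusted after Benjamini and Hochberg over 10585 genes. In gas-1 against wild-type, 8 of the 10 were called lower, where 8.63% of all tested genes were, and 1 was called higher, where 12.8% were, which makes 9 in either direction beside 21.4%. In O/E against gas-1, 7 of the 10 were called higher, where 0.633% of all tested genes were, and 0 lower, where 0.954% were. For the lower direction, 1 of the 10, F56A4.5, had an unadjusted p under 0.05, and DESeq2 called 0. Calls in either direction were made for 1.59% of all tested genes in that comparison. The median log2 change over the 10 genes was -2.47 in gas-1 against wild-type, beside -0.11 over all tested genes, and 2.52 in O/E against gas-1, beside 0.03 over all tested genes. Both medians are the same with srbc-15 at its bound, given below. The comparisons share the gas-1 libraries, and the genes were picked for this pattern, so nothing is read from these shares.

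**Figure D1:**
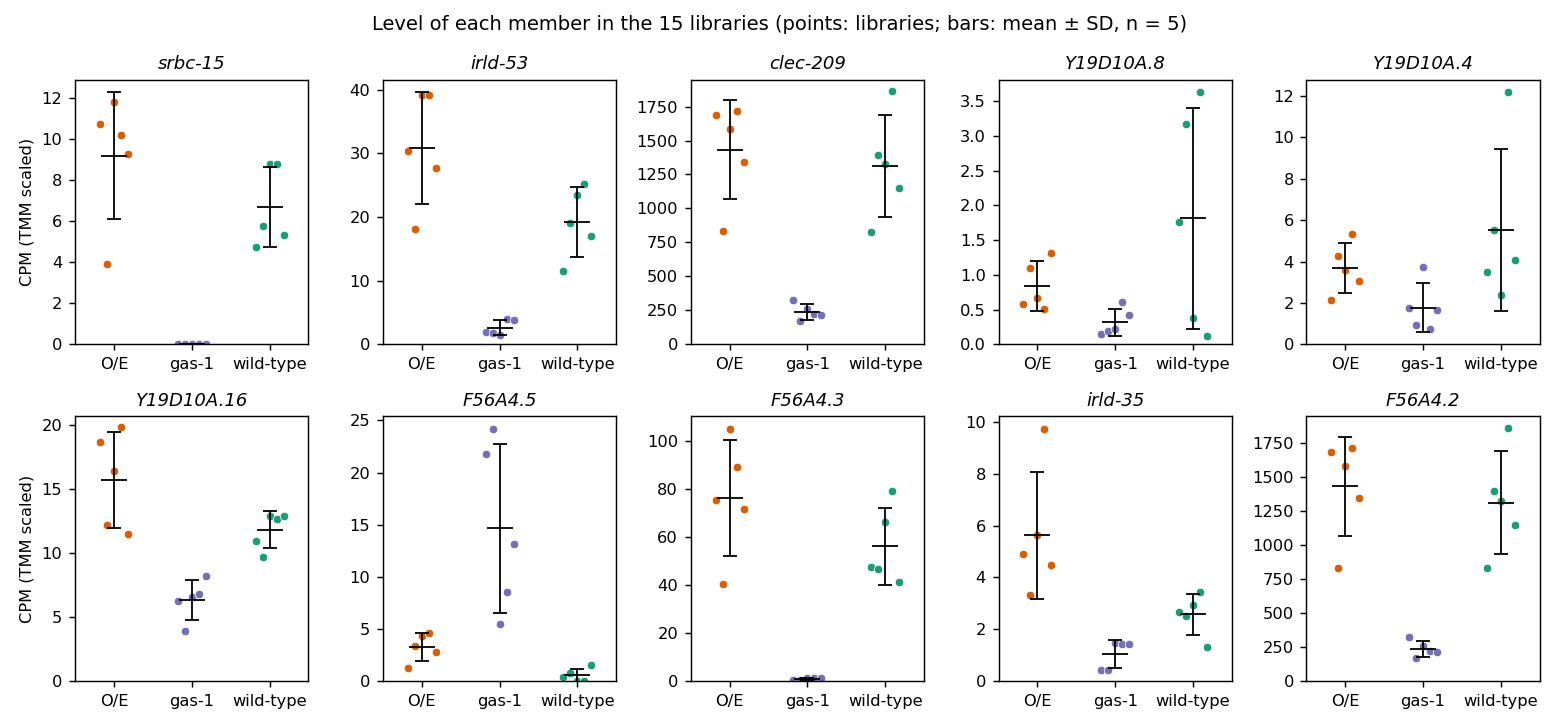
Each panel plots 1 gene, with its level in CPM on a linear axis from 0 and the groups O/E, gas-1 and wild-type from left to right; points are libraries and bars the mean ± SD of 5 libraries. In gas-1 libraries srbc-15 has 0 CPM and F56A4.3 at most 1.31 CPM, while F56A4.5 has at least 5.46 CPM there and at most 4.58 CPM in O/E and 1.48 CPM in wild-type libraries.

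F56A4.3 had the widest separation among the genes with counts in gas-1. It stood at 75.2, 40.1, 105, 88.8 and 71.4 CPM in the 5 O/E libraries, at 0.28, 0.56, 1.31, 1.12 and 1.16 CPM in gas-1, and at 47.2, 46.5, 66.2, 79.0 and 41.1 CPM in wild-type. Every gas-1 library was far below every library of the other groups, while O/E and wild-type overlapped. The fitted log2 change was -5.97 ± 0.38 (SE) in gas-1 against wild-type and 6.41 ± 0.38 in O/E against gas-1. In estimated counts, the gas-1 libraries held 4.4 to 22.1, against 721.5 to 2827 in wild-type.

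The pseudogene srbc-15 was the only one of the 10 with no count in any gas-1 library. Its level was 10.7, 3.90, 11.8, 10.2 and 9.27 CPM in O/E, 0 CPM in all 5 gas-1 libraries, and 4.72, 5.75, 8.76, 8.76 and 5.30 CPM in wild-type. O/E and wild-type overlapped, with O/E replicate 2 the lowest of the libraries that had counts. With 3 counts per gas-1 library as the limit that a count of 0 allows, which is 0.204 CPM on average, srbc-15 was at least 45.0-fold higher in O/E than in gas-1. By the same limit, which covers counting error alone, it was at least 32.7-fold lower in gas-1 than in wild-type.

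The receptor L domain genes irld-53 and irld-35 followed with smaller differences. irld-53 had 30.3, 18.1, 39.1, 39.1 and 27.6 CPM in O/E, 1.91, 1.74, 1.46, 3.92 and 3.81 CPM in gas-1, and 11.5, 18.97, 23.4, 25.2 and 16.9 CPM in wild-type. Again no gas-1 library reached the level of any other library. The log2 change was -2.90 ± 0.33 in gas-1 against wild-type and 3.58 ± 0.34 in O/E against gas-1.

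Levels of irld-35 were 4.91, 3.31, 5.65, 9.75 and 4.49 CPM in O/E, 0.42, 0.44, 1.46, 1.43 and 1.41 CPM in gas-1, and 2.65, 2.51, 2.93, 3.45 and 1.31 CPM in wild-type. The gas-1 libraries lay below all O/E libraries and overlapped wild-type through wild-type replicate 5. irld-35 was not called in gas-1 against wild-type (log2 -1.31 ± 0.47), although 3 of 25 alternative fits called it, and its log2 change in O/E against gas-1 was 2.44 ± 0.48. All estimated counts of irld-35 belong to 6 transcripts that have an equal estimate in irld-53, so the estimates do not separate the copies. The sum of both genes was 36.5 ± 10.8 CPM in O/E, 3.60 ± 1.56 CPM in gas-1 and 21.8 ± 5.90 CPM in wild-type (SD, n = 5 each).

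The lectin pair clec-209 and F56A4.2 was by far the most abundant. Each copy had 1685, 833, 1586, 1715 and 1345 CPM in O/E, 324, 169, 257, 220 and 216 CPM in gas-1, and 830, 1397, 1328, 1863 and 1148 CPM in wild-type. All gas-1 libraries were below all others, yet held 2614 to 4576.5 estimated counts per copy. Summed, the pair averaged 2866 ± 730 CPM in O/E, 474.5 ± 115 CPM in gas-1 and 2627 ± 756 CPM in wild-type (SD, n = 5 each). The log2 change of each copy was -2.47 ± 0.25 in gas-1 against wild-type and 2.59 ± 0.25 in O/E against gas-1.

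Y19D10A.16, with its equal copy C01B4.6 further right, moved the least among the genes called in both comparisons. It had 18.6, 12.2, 16.4, 19.8 and 11.5 CPM in O/E, 6.22, 3.86, 6.56, 6.82 and 8.20 CPM in gas-1, and 10.9, 9.66, 12.9, 12.7 and 12.9 CPM in wild-type. The gas-1 libraries were below all others without overlap. Its log2 change was -0.90 ± 0.23 in gas-1 against wild-type and 1.31 ± 0.23 in O/E against gas-1.

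Y19D10A.4 and Y19D10A.8 did not separate by group. Y19D10A.4 had 2.13, 4.24, 3.58, 5.34 and 3.04 CPM in O/E, 1.77, 0.93, 3.71, 0.71 and 1.66 CPM in gas-1, and 3.48, 5.51, 2.39, 12.2 and 4.05 CPM in wild-type. Y19D10A.8 had 0.58, 1.10, 0.66, 0.51 and 1.32 CPM in O/E, 0.14, 0.19, 0.22, 0.61 and 0.41 CPM in gas-1, and 1.76, 3.17, 0.37, 3.64 and 0.11 CPM in wild-type. For both genes wild-type replicate 4 was the highest library of all, and the groups overlapped in every comparison. Wild-type replicates 1, 2 and 4, with the most muscle marker RNA, were also the highest 3 wild-type libraries for Y19D10A.8. They were not for Y19D10A.4, where wild-type replicate 5 at 4.05 CPM lay above replicate 1 at 3.48 CPM. Whether muscle RNA has a part in either gene was not tested. In wild-type replicates 3 and 5 the a transcript of Y19D10A.8 had 0 counts. All counts there, 15.85 and 2.5, belonged to its b transcript, whose equal twin lies in the repeat partner F56A4.10. Reads of both copies may have been divided differently between libraries, which was not tested. Both were called lower in gas-1 against wild-type, with log2 changes of -1.65 ± 0.52 for Y19D10A.4 and -2.49 ± 0.84 for Y19D10A.8. Without wild-type replicates 1, 2 and 4 these became -0.84 and 0.33, and neither was called. Leaving out single libraries, the call of Y19D10A.4 was lost when replicate 1, 2, 4 or 5 of either group was dropped. That of Y19D10A.8 was lost when any O/E replicate, replicate 1, 2, 3 or 5 of gas-1, or replicate 1, 2 or 4 of wild-type was dropped, and both kept their direction in these fits. Neither was called in O/E against gas-1, with log2 changes of 1.06 ± 0.51 for Y19D10A.4 and 1.39 ± 0.82 for Y19D10A.8.

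F56A4.5 went the other way from the pattern for which these genes were grouped, low in gas-1 and high again in O/E. Its level was 1.23, 3.31, 4.33, 4.58 and 2.77 CPM in O/E, 21.8, 24.2, 5.46, 8.56 and 13.2 CPM in gas-1, and 0.36, 0.77, 0, 0 and 1.48 CPM in wild-type. All gas-1 libraries were above all others, and in wild-type 2 libraries had no count. The log2 change was 4.79 ± 0.87 in gas-1 against wild-type and -2.18 ± 0.77 in O/E against gas-1, where it was not called although the groups did not overlap, and where 2 of 25 alternative fits called it lower. Its partner in the repeat, Y45G12C.4, had 31.3 estimated counts over all 15 libraries, beside 1440 for F56A4.5. F56A4.5 was thus high in gas-1, where Y19D10A.16 to its left and F56A4.3 to its right were low.

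Taking all 10 genes, 6 had all 5 gas-1 libraries below all 5 wild-type libraries, where 6.28% of all tested genes did, and 1 had all 5 above, where 9.62% did. For O/E against gas-1, 7 had all 5 O/E libraries above all 5 gas-1 libraries, where 1.35% of all tested genes did, and F56A4.5 had all 5 below, where 2.41% did. A total of 42 genes, 0.397% of those tested, were called lower in gas-1 against wild-type and higher in O/E against gas-1. Of these, 12 lie on chromosome V. They include srbc-15, irld-53, clec-209, F56A4.2, F56A4.3 and Y19D10A.16, and 2 genes outside the 10 within 1 Mb of F56A4.3, mct-2 and C01B4.6. C01B4.6 has the same counts as Y19D10A.16, and F56A4.2 the same as clec-209, so these are not separate measurements. The share of all tested genes that lie on chromosome V was not counted. The opposite pair of calls, higher in gas-1 and then lower in O/E, was made for 0.756% of tested genes and for none of the 10.

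Because germline markers were lower in gas-1, the fit was repeated with the germline marker level of each library as a covariate. The number of all genes called in gas-1 against wild-type was then 148, in place of 2268. Of the 10 genes 7 were called, 6 of them lower. The genes were picked from this comparison, so nothing is read from their number beside that of all genes. Every gas-1 library also had a lower germline level than every wild-type library, so this fit cannot separate that level from the group. F56A4.3 had a log2 change of -6.76 in that fit, the lectin copies -3.20 and irld-53 -3.50. Without wild-type replicates 1, 2 and 4, 6 of the 10 were called, 5 of them lower.

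Per length, the order of the genes in wild-type ran over a wide range. Each lectin copy had 2837 ± 510 TPM, F56A4.3 308 ± 43.3 TPM and irld-53 44.1 ± 8.85 TPM (SD, n = 5 each). Y19D10A.16 followed with 23.2 ± 3.72 TPM, Y19D10A.4 with 20.1 ± 12.3 TPM and srbc-15 with 15.9 ± 3.03 TPM. Y19D10A.4 overlapped both of its neighbours in this order, while Y19D10A.16 was above srbc-15 by more than their SDs. Y19D10A.8 at 5.63 ± 2.25 TPM and irld-35 at 5.37 ± 1.54 TPM did not differ beyond their spread. F56A4.5 was lowest with 0.88 ± 1.07 TPM. Much of the TPM of Y19D10A.4 came from a transcript of 96 bases, 11.8 ± 8.64 TPM in wild-type, which rests on at most 4.54 estimated counts in a library.

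In gas-1 the order was different. The lectin copies had 444.5 ± 123 TPM each there, F56A4.5 had 19.1 ± 11.4 TPM and Y19D10A.16 10.4 ± 2.2 TPM. Y19D10A.4 at 6.81 ± 6.70 TPM, irld-53 at 4.49 ± 2.16 TPM and F56A4.3 at 4.17 ± 1.94 TPM did not differ beyond their spread. F56A4.5 and Y19D10A.16 did not differ beyond their spread, since Y19D10A.16 was the higher of them in gas-1 replicates 3 and 4. In O/E the lectin copies had 2386 ± 365 TPM, F56A4.3 323 ± 79.1 TPM, irld-53 51.3 ± 9.90 TPM and F56A4.5 3.83 ± 1.53 TPM. For the lectin copies, F56A4.3 and irld-53 these means differed from those in wild-type by less than the wild-type SD.

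O/E and wild-type were then set side by side for the 10 genes. None of the 10 was called by edgeR, where 9.33% of all tested genes were called, 7.09% higher and 2.24% lower. The groups overlapped for all 10, where 4.19% of tested genes had all 5 O/E libraries above wild-type and 2.23% had all 5 below. Without adjustment 3 had a p under 0.05, all higher in O/E, and the DESeq2 Wald test called 1, F56A4.5. The median log2 change over the 10 genes was 0.43, beside -0.04 over all tested genes. Since the genes were picked from their levels in these libraries, nothing is read from these counts.

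For F56A4.3 the log2 change was 0.44 ± 0.29 with a 95% interval of -0.19 to 1.07. The lectin copies had 0.13 ± 0.24 with an interval of -0.39 to 0.65. Intervals this wide still hold differences of about 1 log2 unit for F56A4.3. The log2 change was 0.68 ± 0.30 for irld-53 and 1.13 ± 0.45 for irld-35. For srbc-15 it was 0.46 ± 0.35, and for Y19D10A.16 0.41 ± 0.23. Y19D10A.4 at -0.59 ± 0.50 and Y19D10A.8 at -1.09 ± 0.80 were the ones with a lower fitted level in O/E.

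F56A4.5 had the largest difference of the 10 between O/E and wild-type, 2.61 ± 0.82 on the log2 scale with a 95% interval of 0.83 to 4.39. It was not called by edgeR, and 4 of 25 alternative fits called it. O/E replicate 1 at 1.23 CPM lay below wild-type replicate 5 at 1.48 CPM, and the other O/E libraries were above all wild-type libraries.

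**Figure D2:**
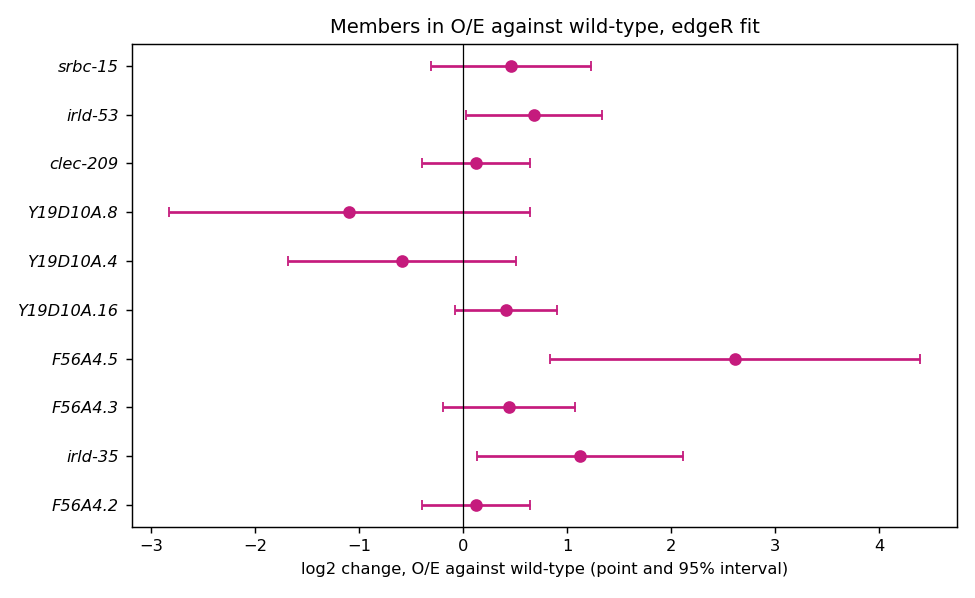
The 10 genes are listed down the page in their order on the chromosome, and the axis gives the log2 change of O/E against wild-type with its 95% interval from the edgeR fit. The intervals of irld-53, irld-35 and F56A4.5 lie above 0 before adjustment for multiple tests, and the other 7 include 0.

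Shares of the irld-53 transcripts were compared between O/E and wild-type, and 2 of them did not overlap. The h transcript of 816 bases took 52.9%, 33.9%, 49.5%, 34.5% and 51.4% of the gene's estimated counts in O/E, and 67.7%, 74.4%, 76.2%, 60.8% and 85.0% in wild-type. Every O/E library was below every wild-type library, with means of 44.4% ± 9.43 in O/E and 72.8% ± 9.14 in wild-type (SD, n = 5 each). For the g transcript of 945 bases the shares were 37.6% ± 6.89 in O/E and 13.1% ± 7.32 in wild-type, also without overlap. An exact two-sided permutation test gave p = 0.00794 for each, the smallest p that 5 against 5 libraries allow. Adjusted over the 20 transcripts compared it was 0.0794 for both, so neither passed. Of the 20 transcripts 7 had an unadjusted p under 0.05, and 0 passed after adjustment. The 2 shares belong to 1 gene and are not independent, and the comparison of shares was added after the values were seen. Each irld-35 transcript has the same counts as its twin in irld-53, so the 20 transcripts are not independent either. The a transcripts of both genes are among the 7. Nothing is read from the p-values of shares, here or below.

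**Figure D3:**
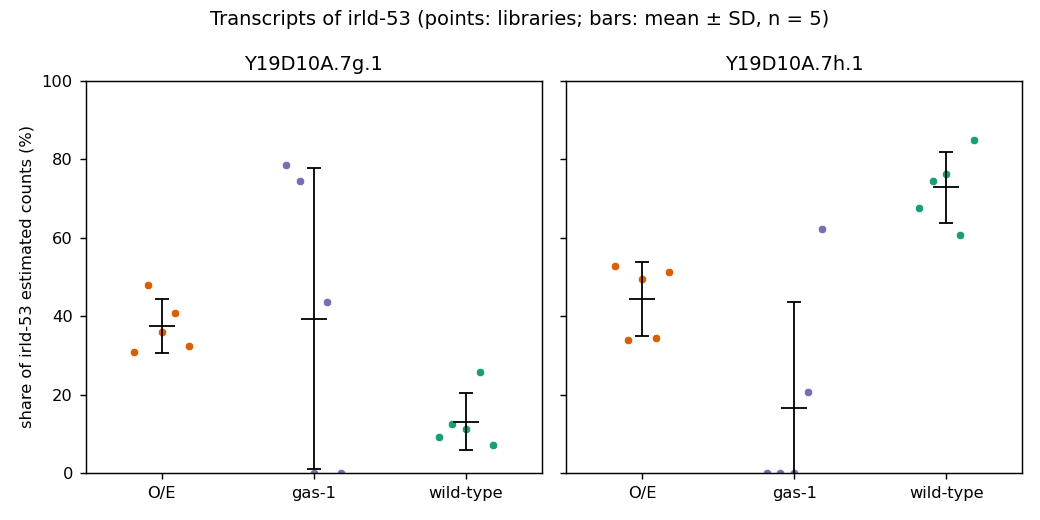
The share of the estimated counts of irld-53 in percent is plotted for the g transcript (Y19D10A.7g.1) and the h transcript (Y19D10A.7h.1), with O/E, gas-1 and wild-type from left to right; points are libraries and bars the mean ± SD of 5 libraries. For h the O/E libraries lie at 33.9% to 52.9% and the wild-type libraries at 60.8% to 85.0%, while gas-1 libraries, with few counts, spread from 0% to 62.2%.

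In gas-1 the shares of these transcripts rest on little. The h transcript had at most 28.4 estimated counts in a gas-1 library and none in 3 of them, and the g transcript had at most 33.7. No difference in transcript use was readable there. In Y19D10A.4 the longest transcript, of 1428 bases, took 31.6% ± 18.8 of the counts in O/E and 58.7% ± 6.23 in wild-type, with an exact permutation p of 0.0397 and an adjusted p of 0.136.

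Other genes of the same stretch were then examined, from 100 kb before srbc-15 to 100 kb after F56A4.2. Of 86 such genes 51 had under 10 estimated counts in every library, and 26 were tested. Left of srbc-15, 7 of 18 tested genes were called higher in gas-1 than in wild-type, where 12.8% of all tested genes were, and 0 lower, where 8.63% were. Of the 18, 15 had a positive log2 change. Without adjustment edgeR's p was under 0.05 for 8 higher and 0 lower genes, and 8 higher and 0 lower genes were called by DESeq2. They include the nuclear hormone receptor genes nhr-115 (log2 2.59 ± 0.27, edgeR adjusted p 1.37e-05), nhr-183 (1.91 ± 0.44, 0.00799), nhr-226 (1.72 ± 0.44, 0.0132) and nhr-228 (1.13 ± 0.31, 0.0174). The cytochrome P450 gene cyp-33C7 (1.91 ± 0.55, edgeR adjusted p 0.0230) and pud-2.2 (1.16 ± 0.30, 0.0140), of a family named for proteins abundant in daf-2 mutants, were also higher. Over the 26 other tested genes of the stretch, 10 were called in this comparison, 7 of them higher. With the germline covariate 2 were called, 1 of them higher, and without wild-type replicates 1, 2 and 4 a single higher call was made. Most of these calls were thus lost in both fits. Calls over all tested genes also fell, from 2268 to 148 and 556, so the loss is not particular to this stretch. Its cause was not tested. None of these 18 was called by edgeR in O/E against gas-1. The unadjusted p was under 0.05 for 7 lower and 0 higher genes, and 1 lower gene was called by DESeq2.

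From srbc-15 on, all 8 of the other tested genes had a negative log2 change in gas-1 against wild-type, from -3.10 to -0.69. All 8 had a positive one in O/E against gas-1, from 1.06 to 2.79. Of these 8, 6 have counts equal to another gene of the repeat, so the 8 are not independent, and the comparisons share the gas-1 libraries. The rest are mct-1 and mct-2, on the same strand, which start at 2375043 and 2483004. These starts have the spacing of irld-53 and irld-35, so mct-1 and mct-2 hold partner positions in the repeat, with spans of unlike length. The highest O/E level was 8.31 CPM for both genes, so they may share reads too, which was not tested. mct-1 was called neither in gas-1 against wild-type (log2 -1.52 ± 0.61, edgeR adjusted p 0.0807) nor in O/E against gas-1 (1.79 ± 0.61, 0.164). Called lower in gas-1 were mct-2, C01B4.7 and C01B4.6, the last pair being the equal copies of Y19D10A.4 and Y19D10A.16. mct-2, named for a family of monocarboxylate transporters, had 6.31 ± 2.29 CPM in O/E, 1.63 ± 0.99 CPM in gas-1 and 6.02 ± 0.87 CPM in wild-type (SD, n = 5 each). Its log2 change was -1.87 ± 0.46 in gas-1 against wild-type (edgeR adjusted p 0.0112) and 1.94 ± 0.46 in O/E against gas-1 (0.0457). C01B4.6 was the only other gene of the 8 called in O/E against gas-1. mct-2 overlaps C01B4.8 and C01B4.7 on the other strand, and libraries without strand information cannot tell reads of overlapping genes apart. For O/E against wild-type edgeR called none of the 8, none had an unadjusted p under 0.05, and DESeq2 called 0. Past the stretch, gst-10, a glutathione S-transferase gene 108 kb right of the start of F56A4.3 that was picked after its values were seen, had 122.1 ± 37.1 CPM in O/E, 116 ± 36.1 CPM in gas-1 and 101 ± 26.5 CPM in wild-type.

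**Figure D4:**
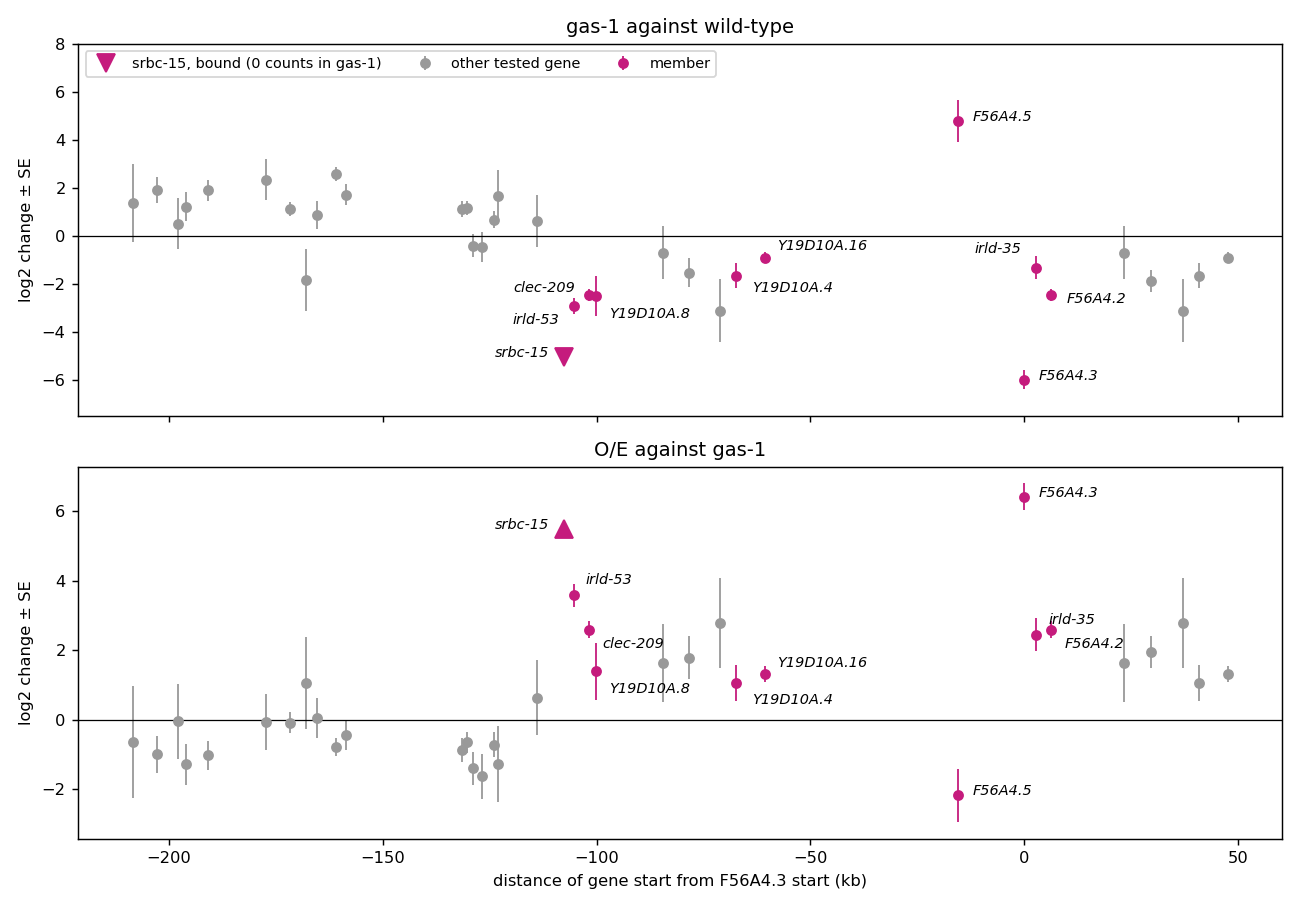
The log2 change ± SE of every tested gene of the stretch is plotted against the distance of its start from the start of F56A4.3 in kb, for gas-1 against wild-type above and O/E against gas-1 below; srbc-15, with 0 counts in gas-1, is drawn as a triangle at its bound. Changes left of srbc-15 are mostly above 0 in the upper panel (15 of 18), and those from srbc-15 on are below 0 there except for F56A4.5. In the lower panel each gene from srbc-15 on has the opposite sign. Left of srbc-15, 15 of 18 are below 0 there, and some genes keep the same sign in both panels.

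Other genes of the same families were counted as well. Among 84 other tested C-type lectin genes, 27 were called higher and 1 lower in gas-1 against wild-type, where 12.8% and 8.63% of all tested genes were, with a median log2 change of 0.83. Calls in O/E against gas-1 were 1 higher and 5 lower, beside 0.633% and 0.954% of all tested genes. Calls in O/E against wild-type were 24 higher and 6 lower, beside 7.09% and 2.24%. clec-4 had 230 ± 84.7 CPM in O/E, 649 ± 174 CPM in gas-1 and 50.3 ± 17.6 CPM in wild-type (SD, n = 5 each), and was higher in gas-1 than in wild-type (log2 3.69 ± 0.32, edgeR adjusted p 2.41e-06). clec-265 (log2 1.80 ± 0.22) and clec-70 (3.36 ± 0.44) were higher in gas-1 as well, and clec-190 was lower in O/E than in gas-1 (-5.58 ± 0.77). The lectin called higher in O/E against gas-1 was clec-50, also on chromosome V, with 4188 ± 1140 CPM in O/E, 1273 ± 313 CPM in gas-1 and 1286 ± 412 CPM in wild-type. Its means in gas-1 and wild-type differed by less than their SD. It was higher in O/E than in gas-1 (log2 1.72 ± 0.26, edgeR adjusted p 0.00264) and than in wild-type (log2 1.70 ± 0.26, edgeR adjusted p 0.00109). clec-47 was lower in O/E than in wild-type, with 22.9 ± 9.62 CPM in O/E and 119 ± 20.7 CPM in wild-type.

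Of 64 other irld genes 1 was tested, irld-30, whose start lies at -113.9 kb from that of F56A4.3. It had log2 changes of 0.62 ± 1.08 in gas-1 against wild-type and 0.64 ± 1.07 in O/E against gas-1. It was not called. None of the 84 other srbc genes had enough counts to be tested. Of 20 other genes named after the clones F56A4 and Y19D10A, 4 were tested and 0 called by edgeR in any of the 3 comparisons. An unadjusted p under 0.05 was found for 2 lower genes in gas-1 against wild-type, where DESeq2 also called 2 lower. It was found for 2 higher genes in O/E against gas-1, where DESeq2 called 0, and for 0 genes in O/E against wild-type, where DESeq2 called 0.

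Likeness to F56A4.3 was measured as the root mean square difference of log2 CPM profiles, each centred on its own mean, over the 15 libraries. The other 9 of the 10 were picked on these same levels, so their likeness is not given. The nearest genes outside the 10 were sem-4 at 1.46, which encodes a zinc finger transcription factor, and ifa-1 at 1.71, which encodes an intermediate filament protein. W03G11.4 at 1.75, H11L12.1 at 1.79, the tetraspanin gene tsp-15 at 1.87 and Y50D4A.4 at 1.89 came next. Of these 6, Y50D4A.4 is the only one on chromosome V, at 1184876 to 1196127. It had 18.2 ± 4.87 CPM in O/E, 3.71 ± 2.12 CPM in gas-1 and 19.6 ± 4.59 CPM in wild-type (SD, n = 5 each). The other 5 had at most 9.11 CPM on average in any group, where single counts weigh heavily on the log scale.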

How the data were processed

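The members and gene lists were chosen with earlier results of these data known. Per the submitters' processing notes, bcl2fastq 2.20, kallisto 0.44.0 and build WBcel235 were used. Per the labels, libraries were made by Smart-seq2 and carry no strand information. The deposited files give, per the file headers, estimated counts (not normalized), TPM and transcript lengths (other values, in bases) per library. Targets carry integers only, which were taken as the line number, from 0, in the transcript map of the series. Under that reading the length equalled that of the Ensembl release 115 transcript for 99.96% of 27233 non-coding transcripts, and for 53.07% with the map moved by 1 line.

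Estimated counts were summed per gene and rounded. All 15 libraries entered 1 quasi-likelihood fit in edgeR 4.0.16 (R 4.3.3) with TMM scaling and 12 residual degrees of freedom. The filterByExpr function, at a minimum count of 10, left 10585 of 46904 genes to test. The common biological coefficient of variation was 0.527. Adjusted p-values are Benjamini-Hochberg values over all tested genes, called under 0.05. Alternatives used DESeq2 1.42.0 and limma 3.58.1. limma on TPM used log2(TPM + 1) with a minimum mean of 1 TPM. The scripts were tested on simulated data. Replicate numbers were not treated as pairs: residuals of equal numbers correlated above 0.1 in 0 of 5 pairs of gas-1 and wild-type, 1 of 5 of O/E and gas-1 and 1 of 5 of O/E and wild-type. Named besides the 10 genes were at most 8 called genes of the stretch with the smallest adjusted p, 6 genes nearest in pattern to F56A4.3, and up to 3 called genes per family and comparison. The authors' table of comparisons was not used, since its names do not line up with the count files.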

Additional observations from a re-analysis of the deposited data

How the results depend on the processing

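Over 25 alternative fits, the 10 genes gave 748 log2 changes. Of these 707 kept their direction and their side of the threshold, 31 lost a call, 9 gained one and 1 reversed, Y19D10A.8 in gas-1 against wild-type at 0.33 without wild-type replicates 1, 2 and 4. The lost calls were of Y19D10A.4 (14 of 25 fits), Y19D10A.8 (16 of 24) and Y19D10A.16 (1 of 25), all in gas-1 against wild-type. Leaving out 1 library each, 7 to 9 of the 10 were called in gas-1 against wild-type, 7 to 7 in O/E against gas-1 and 0 to 1 in O/E against wild-type. DESeq2 and limma on log2(TPM + 1) each called 1 in O/E against wild-type. Counts over all genes moved more. In gas-1 against wild-type 2268 genes were called, 148 with the germline covariate, 556 without wild-type replicates 1, 2 and 4, and 1319 to 2489 without 1 library, lowest without wild-type replicate 5. For O/E against gas-1 168 were called, 514 by DESeq2, 339 on log2(TPM + 1), 102 with the replicate block and 85 to 380 without 1 library, lowest without gas-1 replicate 1 and highest without gas-1 replicate 2. For O/E against wild-type 988 were called, 1535 by DESeq2, 644 with the 2 groups alone, 551 with the germline covariate, 144 without wild-type replicates 1, 2 and 4, and 512 to 1630 without 1 library, lowest without O/E replicate 4 and highest without O/E replicate 2. Of the other genes of the stretch, 10 were called in gas-1 against wild-type, 2 with the germline covariate, 1 without wild-type replicates 1, 2 and 4, and 7 to 12 without 1 library. Called in O/E against gas-1 were 2, 5 on log2(TPM + 1), 1 with no filter, limma-voom, the 2 groups alone, the germline covariate or without wild-type replicates 1, 2 and 4, and 1 to 2 without 1 library. Called in O/E against wild-type were 3, 6 by DESeq2, 1 without wild-type replicates 1, 2 and 4, and 1 to 4 without 1 library. The causes were not tested. The replicate block left 8, 7 and 0 of the 10 genes called in the 3 comparisons, and the numbers were not treated as pairs. Depth limits srbc-15, with 0 counts in gas-1, and Y19D10A.8, with 2 to 11.9 estimated counts per gas-1 library. Copies with equal counts were not told apart in these libraries, and whether more depth would separate them was not tested.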
